A study of Rhododendron with 15 samples.

Results

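Starch and sucrose metabolism genes are described here across leaf libraries of the Rhododendron cultivar 'xiaotaohong'. The members are the rows of the deposited gene table that carry the KEGG pathway map for starch and sucrose metabolism and not the map for glycolysis, apart from 1 granule-bound starch synthase locus, MSTRG.5792, that was left out by identifier. They number 299 of 29985 genes. No member is described as a pectinesterase or polygalacturonase, which would also have been left out. Polyadenylated RNA was sequenced from leaves held at 25, 35 or 40 °C without melatonin, and at 35 or 40 °C with melatonin, an indoleamine given to plants in heat tolerance studies. Each of these 5 groups has 3 libraries, and the group at 25 °C without melatonin is the control. The title of the series names tolerance of high temperature and its change with melatonin as the question. The melatonin dose, the length of exposure, and whether the 3 libraries of a group came from separate plants were not given in the labels, so p-values measure the spread between these libraries, which may be technical.

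Total counts were 54300447 to 68267949 per library. Libraries of the same group had a Pearson correlation of log2 CPM values over the tested genes of 0.968 to 0.974, and libraries of different groups of 0.724 to 0.96. Members took 0.967 to 0.972% of the counts at 25 °C, 0.948 to 0.972% at 35 °C and 1.55 to 1.59% at 40 °C, and 0.901 to 0.909% at 35 °C and 0.908 to 0.922% at 40 °C with melatonin. Levels below are FPKM, the fragments per kilobase of transcript, scaled to library depth, that the authors deposited, given as mean ± SD of 3 libraries where not listed one by one. Differences are log2 fold changes ± SE from the counts, and a gene is said to rise or fall only where its Benjamini-Hochberg adjusted p from edgeR's quasi-likelihood test, over 26183 genes, was below 0.05. Of the 299 members, 252 had enough counts to be tested, and the other 47 averaged at most 0.184 FPKM. In whole leaves, fewer cells of a type and less RNA per cell cannot be told apart.

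In a leaf, the carbon fixed by day is divided between sucrose, which is made in the cytosol and exported through the phloem, and starch, which is stored in the chloroplast and broken down to maltose and glucose at night. Sucrose-phosphate synthase and ADP-glucose pyrophosphorylase are regarded as the main control points of the respective syntheses, and beta-amylases as the main route of starch loss. Trehalose phosphate, made from the same precursors, is a sugar signal that in Arabidopsis inhibits the SnRK1 kinase. The KEGG map also holds enzymes that cut cellulose, callose and glucosides.

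The descriptions deposited with the genes put 169 members in 6 roles, of which 144 were tested. Sucrose synthesis has 9 members, sucrose cleavage 15, starch synthesis 19, starch breakdown 19, trehalose metabolism 23 and wall or glucoside hydrolysis 84. The other 130 members carry a KEGG ortholog of the map beside a description that matched none of these roles. They include 2 alpha-glucosidases, an enzyme of the map that no role list held. Most are described otherwise. Among the 130 are 28 pentatricopeptide repeat proteins listed under the ortholog of alpha-amylase and 21 berberine bridge-like oxidases listed under that of alpha-glucosidase. The 130 are therefore reported apart from the 6 roles. At 17 members the locus joins several gene names, so reads of neighbouring genes may be mixed in their values, and each is marked as a merged locus where it is named.

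At 40 °C against 25 °C, 91 members rose and 108 fell. Over all tested genes 37.3% rose and 38.6% fell, 75.9% in either direction, so the members' 36.1% and 42.9% lie near the background. At 35 °C against 25 °C 73 rose and 72 fell, beside 25.5% and 23.6% of all genes (49.1% in either direction). From 35 to 40 °C 75 rose and 105 fell, beside 32.8% and 36.5% of all genes (69.3% in either direction). The median log2 fold change of the members was 0.00 at 35 °C and -0.08 at 40 °C against 25 °C, beside 0.01 and -0.01 over all genes.

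Fewer members passed the test with a change of at least 2-fold. By this measure, at 40 °C against 25 °C, 64 rose and 77 fell, beside 24.4% and 25.9% of all genes. For 35 °C against 25 °C, 30 rose and 26 fell, beside 8.72% and 7.98% of all genes. Between 35 and 40 °C, 49 rose and 66 fell, beside 18.7% and 21.8% of all genes. With melatonin at 35 °C, 23 rose and 4 fell, beside 3.93% and 0.672% of all genes. With melatonin at 40 °C, 45 rose and 39 fell, beside 16.2% and 11.1% of all genes. In 40 °C with melatonin against 25 °C, 63 rose and 57 fell, beside 19.5% and 17.8% of all genes. The melatonin effect was higher at 40 than at 35 °C by at least 2-fold in 45 members and lower in 44, beside 13.7% and 10.5% of all genes.

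Melatonin at 35 °C went with 39 members higher and 40 lower than without it, beside 9.7% and 12.3% of all genes (22% in either direction). By limma on log2 FPKM the 35 °C split was 61 higher and 34 lower with a pseudocount of 1 and 54 higher and 29 lower with 0.1, so its balance depends on the method. At 40 °C 95 members were higher and 63 lower with melatonin, beside 32.9% and 26.2% of all genes (59.1% in either direction). The member median was 0.22 there and that of all genes 0.10; with median-of-ratios scaling these were 0.15 and 0.03, with 86 members higher and 68 lower. At 40 °C with melatonin against 25 °C, 93 members were higher and 94 lower, beside 34.3% and 33.3% of all genes (67.6% in either direction). The comparisons share libraries and are not independent of each other.

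**Figure D1:**
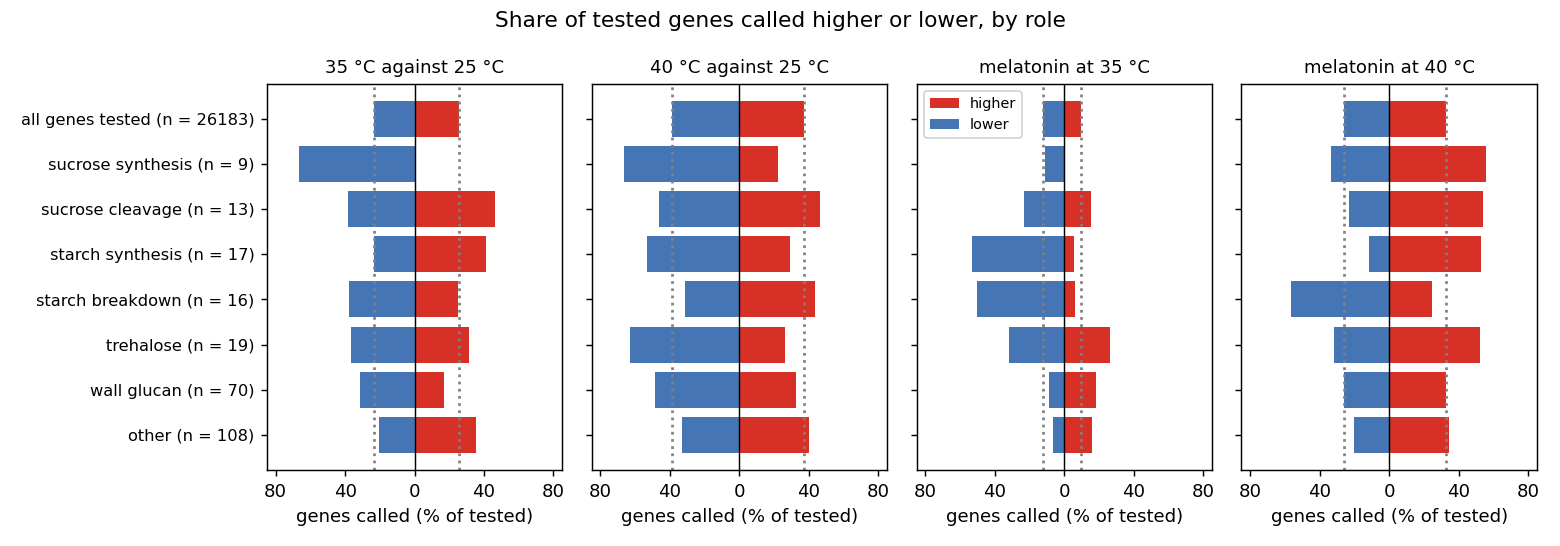
Horizontal bars give the percentage of tested genes called higher (right) or lower (left) at an adjusted p below 0.05, by role, in 4 comparisons; dotted lines mark all tested genes. Sucrose synthesis has no gene higher at 35 °C, and starch breakdown has 9 of 16 lower with melatonin at 40 °C.

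Cell type markers moved with temperature too. All 11 mesophyll markers, Rubisco small chains and chlorophyll a-b binding proteins, were detected in every group of these leaves, and 11 of 11 fell at 40 °C while 11 rose with melatonin there. Their summed FPKM per library was between 16751 and 17674 at 25 °C, between 15744 and 16748 at 35 °C, between 3353 and 3401 at 40 °C, between 14834 and 15453 with melatonin at 35 °C and between 12771 and 13886 with melatonin at 40 °C. Of 16 tested phloem markers 5 rose and 10 fell at 40 °C, and 2 of the 18 were at 0 in each group. Their sums were between 309 and 315 at 25 °C, between 477 and 480.3 at 35 °C, between 111 and 117 at 40 °C, between 166 and 169.96 with melatonin at 35 °C and between 101 and 107 with melatonin at 40 °C. Much of the phloem sum at 25 and 35 °C came from MSTRG.14865, named after its values were seen. Its mean FPKM was 203 at 25 °C, 370 at 35 °C and 60.5 at 35 °C with melatonin. Of 5 tested epidermis markers 0 rose and 2 fell, and 1 or 2 of the 9 were at 0 by group. The epidermis sums were between 328 and 348 at 25 °C, between 236 and 245 at 35 °C, between 20.5 and 21.6 at 40 °C, between 316 and 320.1 with melatonin at 35 °C and between 22.1 and 23.6 with melatonin at 40 °C. At 25 and 35 °C most of the epidermis sum came from MSTRG.14211, also named after its values were seen. Its mean FPKM was 320 at 25 °C, 226 at 35 °C and 299 at 35 °C with melatonin. The epidermis sums thus mostly follow 1 gene. Of 6 tested xylem markers 1 rose and 1 fell, with sums from 4.08 to 4.36 at 35 °C to 6.08 to 6.9 at 35 °C with melatonin, and 0 to 3 of the 7 at 0 by group. The mesophyll markers moved with the lower starch and sucrose synthesis genes at 40 °C and with their higher levels under melatonin, and their part in those results was not tested.

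At 40 °C without melatonin, a few loci held most of the summed level of some roles. The summed FPKM of all members was 3298 ± 16.4 at 25 °C, 3108 ± 26.5 at 35 °C and 5329 ± 83.7 at 40 °C, and 3088 ± 15.1 at 35 °C and 3119 ± 17.5 at 40 °C with melatonin. Starch breakdown genes summed to 559 ± 3.31 at 25 °C and 1614 ± 42.5 at 40 °C, but to 316 ± 2.39 and 371 ± 12.9 without MSTRG.2591, a beta-amylase. Trehalose genes summed to 183 ± 2.78 and 649 ± 13.4, but to 179 ± 2.71 and 195 ± 7.66 without MSTRG.146, a trehalose-phosphate synthase. The wall and glucoside genes summed to 407 ± 9.77 and 1499.7 ± 24.3, and without the beta-glucosidases MSTRG.14534 and MSTRG.22947 to 383 ± 10.7 and 312 ± 8.46, which is lower at 40 °C. Without these loci the sums of starch breakdown and trehalose genes were still higher at 40 than at 25 °C, by less, and that of the wall and glucoside genes was not. Sucrose synthesis genes summed to 224 ± 1.62 at 25 °C and 118 ± 1.66 at 40 °C. Starch synthesis genes summed to 381 ± 6.22 and 239 ± 1.24. Sucrose cleavage genes moved less, from 335 ± 6.01 to 286 ± 13.6. The loci left out above were the highest of their role at 40 °C, a choice that bears on rises. Without MSTRG.13764, sucrose synthesis sums were 138 ± 3.15 at 25 °C and 73.1 ± 1.93 at 40 °C, still lower. Within starch synthesis the largest fall was that of ADP-glucose pyrophosphorylase, from 154.9 ± 2.36 to 16.02 ± 1.2. Branching enzymes went from 89.4 ± 3.43 to 127 ± 2.22. Starch synthases went from 96.3 ± 3.57 to 63.7 ± 1.65 and isoamylases from 40.8 ± 0.65 to 32.2 ± 1.4. The fall of ADP-glucose pyrophosphorylase was close in size to that of the whole starch synthesis sum. Most of that class at 25 and at 40 °C was 1 locus, MSTRG.2377. A starch synthesis sum without MSTRG.2377 was not computed. In each of the 6 roles the 3 libraries at 40 °C lay apart from those at 25 °C in the full sums.

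**Figure D2:**
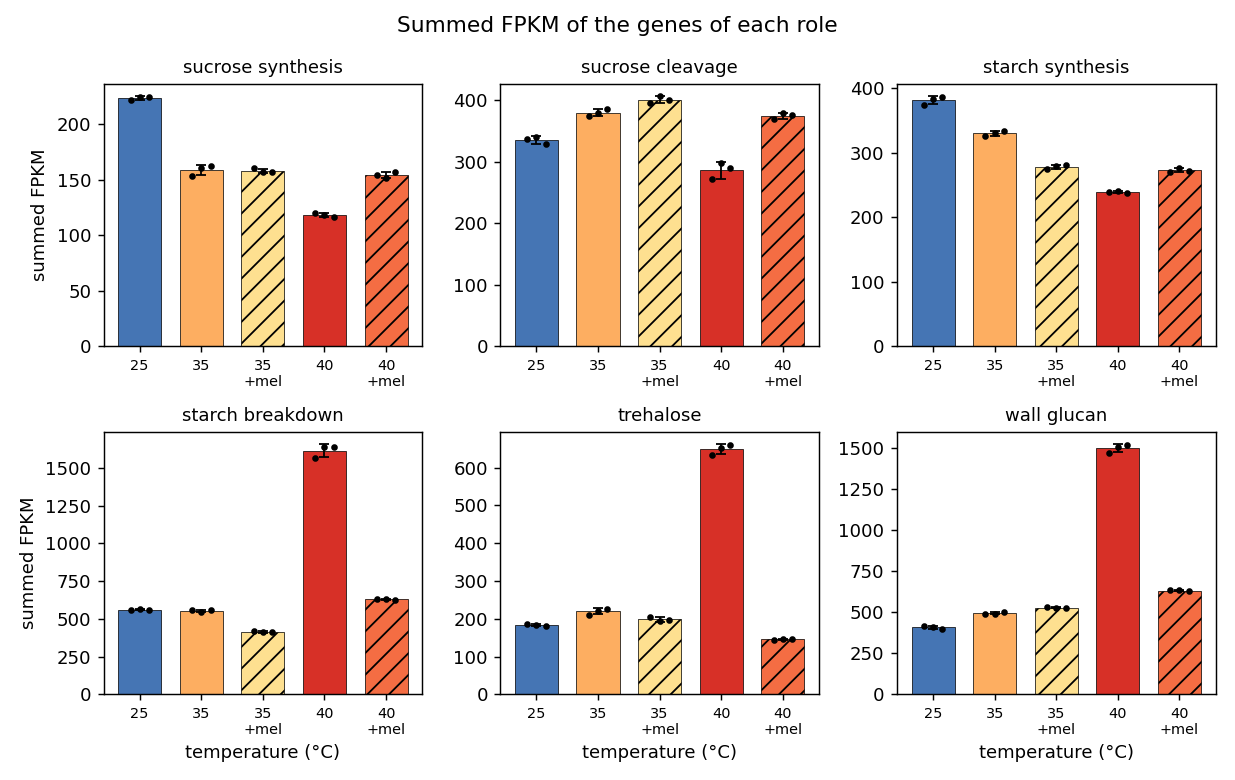
Bars show the mean summed FPKM of the genes of each role in each group, with the SD of 3 libraries and the libraries as points; hatched bars are groups with melatonin. Starch breakdown, trehalose and wall glucan sums are highest at 40 °C without melatonin, and sucrose synthesis and starch synthesis sums are lowest there.

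Sucrose synthesis genes fell more often than they rose in heat. Of 9 tested members, 0 rose and 6 fell at 35 °C against 25 °C, and 2 rose and 6 fell at 40 °C (median log2 fold change -0.84). Over all genes 25.5% and 23.6% rose and fell at 35 °C, and 37.3% and 38.6% at 40 °C. MSTRG.22389, a sucrose-phosphate synthase at a merged locus and the most abundant of its class, had an FPKM of 55.3, 59.2 and 57.8 at 25 °C, 20.6, 22.3 and 23.1 at 35 °C and 18.4, 17.1 and 18.4 at 40 °C in the libraries without melatonin. MSTRG.22389 with melatonin had an FPKM of 25.9, 26.3 and 24.4 at 35 °C and 16.4, 16.6 and 15.7 at 40 °C. All libraries at 35 or 40 °C lay below those at 25 °C, with or without melatonin. MSTRG.22389 fell by 1.44 ± 0.05 (adjusted p = 2.3e-11) at 35 °C and fell by 1.58 ± 0.05 (adjusted p = 8.6e-13) at 40 °C on the log2 scale. With melatonin at 40 °C it was lower again, by 0.34 ± 0.05 (adjusted p = 4.2e-05), while its change with melatonin at 35 °C, 0.11 ± 0.05, did not pass the test (adjusted p = 0.15).

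MSTRG.3599, a second sucrose-phosphate synthase, on chromosome 2, positions 31801543 to 31812621, minus strand, had an FPKM of 14.2, 13.7 and 12.5 at 25 °C, 9.84, 10.04 and 10.8 at 35 °C and 0.322, 0.495 and 0.254 at 40 °C in the libraries without melatonin. MSTRG.3599 with melatonin had an FPKM of 10.1, 10.1 and 10.3 at 35 °C and 4.76, 5.05 and 4.46 at 40 °C. The libraries at 40 °C stood below all others, those at 40 °C with melatonin lay between 40 °C and 35 °C, and both groups at 35 °C overlapped. MSTRG.3599 fell by 5.14 ± 0.17 (adjusted p = 9.4e-13) at 40 °C against 25 °C and rose by 3.53 ± 0.16 (adjusted p = 1.3e-10) with melatonin at 40 °C. The sucrose phosphatase MSTRG.15559, which removes the phosphate in the last step, had an FPKM of 30.7 ± 1.73 at 25 °C, 21.4 ± 1.7 at 35 °C, 10.97 ± 0.367 at 40 °C and 18.8 ± 1.64 at 40 °C with melatonin. It fell by 1.39 ± 0.08 (adjusted p = 3.9e-10) at 40 °C and rose by 0.58 ± 0.08 (adjusted p = 1.2e-05) with melatonin there.

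UDP-glucose, the glucose donor of sucrose, is made by UTP-glucose-1-phosphate uridylyltransferase, and 2 of its 3 loci went opposite ways at 40 °C. MSTRG.18264, chromosome 10, positions 30339295 to 30347216, minus strand, had an FPKM of 0, 0 and 0 at 25 °C, 0, 0 and 0.072 at 35 °C and 15.4, 15.99 and 18.1 at 40 °C in the libraries without melatonin. MSTRG.18264 with melatonin had an FPKM of 0.0695, 0.029 and 0.0421 at 35 °C and 2.07, 2.09 and 2.43 at 40 °C. The gene was close to 0 in the 9 libraries at 25 or 35 °C and detected in all 6 at 40 °C, highest without melatonin. Against a floor of 3 counts over the 25 °C group it was at least 2896-fold higher at 40 °C and at least 385-fold higher at 40 °C with melatonin. MSTRG.18264 passed the count filter through the 40 °C groups, so its rise was partly set by the filter. MSTRG.13764, the abundant locus of this class, had 86.1 ± 3.04 FPKM at 25 °C, 45.2 ± 3.59 at 40 °C and 75.1 ± 0.735 at 40 °C with melatonin. It fell by 0.84 ± 0.05 (adjusted p = 1.2e-09) at 40 °C and rose by 0.54 ± 0.05 (adjusted p = 3.8e-07) with melatonin there. With melatonin at 40 °C, 5 of the 9 sucrose synthesis genes were higher and 3 lower, or 4 and 4 with median-of-ratios scaling. Over all genes 32.9% were higher and 26.2% lower there.

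Genes for sucrose cleavage and the use of its fructose did not share 1 direction. Of 13 tested, 6 rose and 5 fell at 35 °C, 6 rose and 6 fell at 40 °C against 25 °C, and 7 rose and 3 fell with melatonin at 40 °C. Beside these stand 25.5% and 23.6% of all genes at 35 °C and 37.3% and 38.6% at 40 °C. With melatonin at 40 °C 32.9% of all genes rose and 26.2% fell. Sucrose synthases, which split sucrose to UDP-glucose and fructose, divided: MSTRG.2177 had 53.5 ± 0.596 FPKM at 25 °C, 114 ± 1.86 at 35 °C and 73.4 ± 1.97 at 40 °C. It rose by 1.03 ± 0.03 (adjusted p = 2.0e-12) at 35 °C and rose by 0.55 ± 0.03 (adjusted p = 2.5e-10) at 40 °C. MSTRG.8205, a sucrose synthase named after its values were seen, had 44.1 ± 0.547 FPKM at 25 °C, 38.7 ± 2.09 at 35 °C and 14.4 ± 1.6 at 40 °C, and fell by 1.53 ± 0.07 (adjusted p = 2.9e-11) at 40 °C. Melatonin at 40 °C went with 104 ± 1.67 FPKM of MSTRG.2177 (adjusted p = 4.2e-07) and 15.8 ± 0.403 of MSTRG.8205, the latter change not passing the test (adjusted p = 0.49). Another locus of the class, Rhsim10G0185600, had 1.5 ± 0.17 FPKM at 25 °C and fell to 0.094 ± 0.0487 at 35 °C (adjusted p = 5.6e-04).

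Insoluble invertases split sucrose in the cell wall. MSTRG.4749, described as beta-fructofuranosidase, insoluble isoenzyme, on chromosome 3, positions 11963284 to 11968357, minus strand, had an FPKM of 17.4, 18.02 and 14.97 at 25 °C, 4.56, 5.53 and 6.69 at 35 °C and 0.971, 1.04 and 1.54 at 40 °C in the libraries without melatonin. MSTRG.4749 with melatonin had an FPKM of 8.58, 8.26 and 7.78 at 35 °C and 1.61, 1.62 and 1.5 at 40 °C. The level stepped down from 25 to 35 to 40 °C with no overlap, and both groups at 40 °C overlapped. MSTRG.4749 fell by 1.65 ± 0.16 (adjusted p = 7.9e-07) at 35 °C and fell by 3.73 ± 0.17 (adjusted p = 5.4e-11) at 40 °C against 25 °C, and neither melatonin comparison passed the test (adjusted p = 0.053 at 35 °C and 0.29 at 40 °C). The locus MSTRG.15238, which carries the invertase ortholog but is described only as a hypothetical protein, had 49.8 ± 0.941 FPKM at 25 °C, 164 ± 1.57 at 40 °C and 74.6 ± 2.21 at 40 °C with melatonin. It rose by 1.81 ± 0.04 (adjusted p = 2.2e-14) at 40 °C and fell by 1.33 ± 0.04 (adjusted p = 2.1e-12) with melatonin there.

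Fructokinases phosphorylate the fructose set free. MSTRG.2865, described as fructokinase-4 like, on chromosome 2, positions 12799258 to 12803495, plus strand, had an FPKM of 1.31, 1.81 and 1.38 at 25 °C, 1.5, 1.71 and 2.15 at 35 °C and 14.5, 13.9 and 13.4 at 40 °C in the libraries without melatonin. MSTRG.2865 with melatonin had an FPKM of 3.49, 4.03 and 3.9 at 35 °C and 1.77, 1.12 and 2.19 at 40 °C. Its 3 libraries at 40 °C without melatonin stood above all others, and those at 40 °C with melatonin overlapped the 25 °C libraries. MSTRG.2865 rose by 3.3 ± 0.23 (adjusted p = 4.6e-09) at 40 °C, rose by 0.98 ± 0.21 (adjusted p = 0.0037) with melatonin at 35 °C and fell by 3.23 ± 0.23 (adjusted p = 1.4e-08) with melatonin at 40 °C. MSTRG.15582 went the other way in heat, from 100.2 ± 1.71 FPKM at 25 °C to 62.9 ± 2.38 at 35 °C and 26.4 ± 2.36 at 40 °C (adjusted p = 1.1e-12). MSTRG.9682 rose from 40.4 ± 1.4 FPKM at 25 °C to 75.7 ± 3.29 at 35 °C and 93.2 ± 7.83 at 40 °C (adjusted p = 2.4e-10), and MSTRG.15029 from 1.85 ± 0.307 at 25 °C to 8.95 ± 2.32 at 40 °C (adjusted p = 1.3e-07). MSTRG.14243 fell from 37.6 ± 2.15 FPKM to 10.9 ± 2.5 at 40 °C and was at 30.2 ± 0.55 there with melatonin, a rise of 1.27 ± 0.12 on the log2 scale (adjusted p = 3.2e-07). Over the 7 fructokinases, 4 rose and 2 fell at 40 °C against 25 °C, beside 37.3% and 38.6% of all genes.

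**Figure D3:**
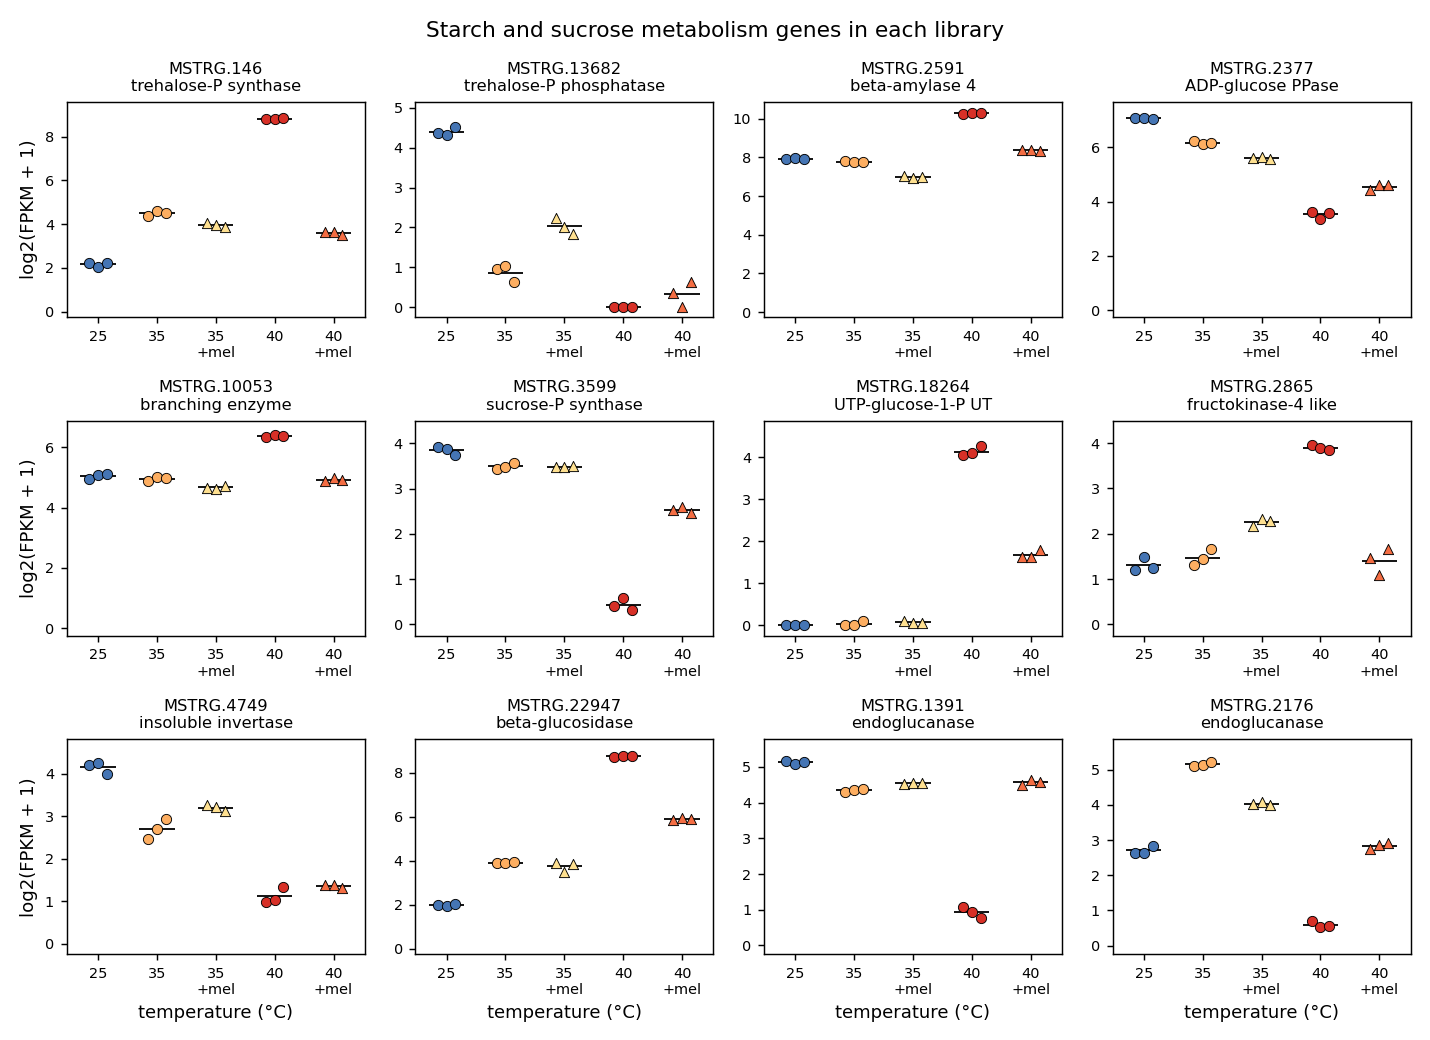
Points show log2(FPKM + 1) of 12 genes in every library, with the group mean as a line; circles are groups without melatonin and triangles those with it. MSTRG.146 reached 448 to 461 FPKM at 40 °C without melatonin and 10.2 to 11.5 with it, while MSTRG.1391 and MSTRG.2176 were lowest at 40 °C without melatonin.

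Starch synthesis genes fell more often than they rose at 40 °C. Of 17 tested, 7 rose and 4 fell at 35 °C and 5 rose and 9 fell at 40 °C against 25 °C (median -0.57), beside 25.5% and 23.6% of all genes at 35 °C and 37.3% and 38.6% at 40 °C; the 35 °C counts were 5 and 4 with median-of-ratios scaling. The 5 members of ADP-glucose pyrophosphorylase, which makes the glucose donor of starch in the plastid, gave 0 rises and 4 falls there. MSTRG.2377, its most abundant locus, on chromosome 2, positions 2727572 to 2734373, minus strand, had an FPKM of 134, 135 and 132 at 25 °C, 73.1, 69.04 and 71.04 at 35 °C and 11.4, 9.26 and 11.01 at 40 °C in the libraries without melatonin. MSTRG.2377 with melatonin had an FPKM of 47.1, 48.7 and 46.7 at 35 °C and 20.7, 23.2 and 23.2 at 40 °C. All 5 groups were apart, in the order 25 °C, 35 °C, 35 °C with melatonin, 40 °C with melatonin and 40 °C. MSTRG.2377 fell by 0.97 ± 0.06 (adjusted p = 1.3e-08) at 35 °C and fell by 3.57 ± 0.07 (adjusted p = 3.0e-15) at 40 °C against 25 °C, fell by 0.69 ± 0.06 (adjusted p = 2.1e-06) with melatonin at 35 °C and rose by 0.89 ± 0.06 (adjusted p = 1.8e-08) with melatonin at 40 °C.

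Of the other loci of this enzyme, 2 rose at 35 °C before falling at 40 °C. MSTRG.11325, a merged locus, had 14.7 ± 0.578 FPKM at 25 °C, 18.6 ± 1.2 at 35 °C, 4.56 ± 0.0549 at 40 °C and 22.6 ± 0.479 at 40 °C with melatonin. MSTRG.8740, described as a large subunit, had 5.08 ± 0.646 FPKM at 25 °C, 8.07 ± 0.551 at 35 °C, 0.849 ± 0.135 at 40 °C and 2.04 ± 0.146 at 40 °C with melatonin. Both rose at 35 °C (adjusted p = 5.7e-04 and 9.1e-04) and fell at 40 °C against 25 °C (adjusted p = 1.6e-12 and 2.7e-10). With melatonin at 40 °C MSTRG.11325 rose by 2.11 ± 0.06 (adjusted p = 3.8e-13) and MSTRG.8740 rose by 1.07 ± 0.13 (adjusted p = 6.1e-06) on the log2 scale. The low MSTRG.10228, another large subunit, went from 1.44 ± 0.221 FPKM at 25 °C to 0.0204 ± 0.0199 at 40 °C (adjusted p = 1.4e-05).

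Starch synthases, which extend the glucan chain, and branching enzymes, which add its branch points, did not share 1 direction. The granule-bound starch synthase MSTRG.4144 had 19.2 ± 0.59 FPKM at 25 °C, 8.75 ± 0.321 at 35 °C and 4.06 ± 0.346 at 40 °C, and fell by 2.15 ± 0.09 (adjusted p = 1.9e-11) at 40 °C. The soluble synthase MSTRG.22652, named after its values were seen, had 17.9 ± 0.554 FPKM at 25 °C, 18.5 ± 1.04 at 40 °C and 37.9 ± 1.26 at 40 °C with melatonin, where it rose by 0.84 ± 0.05 (adjusted p = 3.9e-09) over 40 °C alone. Over the 6 starch synthases 3 rose and 2 fell at 40 °C, and 4 rose and 0 fell with melatonin at 40 °C. MSTRG.10053, a branching enzyme on chromosome 6, positions 788598 to 797778, plus strand, had an FPKM of 30.3, 32.8 and 33.4 at 25 °C, 28.9, 31.6 and 30.3 at 35 °C and 80.5, 83.6 and 81.7 at 40 °C in the libraries without melatonin. MSTRG.10053 with melatonin had an FPKM of 24.2, 23.8 and 25.6 at 35 °C and 28.5, 30.9 and 28.9 at 40 °C. Only the 40 °C libraries without melatonin stood above the rest. MSTRG.10053 rose by 1.44 ± 0.05 (adjusted p = 1.7e-12) at 40 °C and fell by 1.67 ± 0.05 (adjusted p = 1.4e-12) with melatonin there. RhsimUnG0248600, described as branching enzyme 3, went from 4.35 ± 0.0164 FPKM at 25 °C to 9.5 ± 0.798 at 40 °C with melatonin (adjusted p = 1.3e-07). MSTRG.7330, a merged locus of the same class, had 52.8 ± 1.68 FPKM at 25 °C and 37.5 ± 1.22 at 40 °C and fell (adjusted p = 7.7e-08). Of the 3 isoamylases, debranching enzymes placed in this role by name, 3 rose and 0 fell at 35 °C, or 1 and 0 with median-of-ratios scaling. At 40 °C 0 isoamylases rose and 2 fell. Over all genes 25.5% rose and 23.6% fell at 35 °C, and 37.3% and 38.6% at 40 °C. With melatonin at 40 °C, the comparison given above for starch synthases, 32.9% of all genes rose and 26.2% fell.

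With melatonin, more starch synthesis genes were lower than higher at 35 °C, and more were higher than lower at 40 °C. At 35 °C 1 of 17 was higher and 9 were lower with melatonin (median -0.26), beside 9.7% and 12.3% of all genes. At 40 °C 9 were higher and 2 lower (median 0.57), beside 32.9% and 26.2% of all genes. Not every gene reversed, as MSTRG.11325 was higher with melatonin at both temperatures and MSTRG.10053 lower at both. The difference between the melatonin effects, at 40 °C minus at 35 °C, passed the test above 0 for 10 of the 17 and below 0 for 1, beside 27.2% and 21.3% of all genes. Over all members 80 differences lay above 0 and 65 below, and 48.5% of all genes passed in either direction.

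Starch breakdown genes gave 7 rises and 5 falls among 16 tested at 40 °C against 25 °C, or 10 and 5 with median-of-ratios scaling, and 4 and 6 at 35 °C. Over all genes 37.3% rose and 38.6% fell at 40 °C, and 25.5% and 23.6% at 35 °C. With melatonin 8 of 16 fell and 1 rose at 35 °C, and 9 fell and 4 rose at 40 °C, beside 12.3% and 26.2% of all genes lower; with median-of-ratios scaling 9 fell and 2 rose at 40 °C. Most of the summed level of the role at 40 °C belonged to 1 beta-amylase. MSTRG.2591, described as beta-amylase 4, on chromosome 2, positions 7305913 to 7313019, plus strand, had an FPKM of 243, 245 and 241 at 25 °C, 221, 213 and 215 at 35 °C and 1208, 1265 and 1256 at 40 °C in the libraries without melatonin. MSTRG.2591 with melatonin had an FPKM of 129.8, 123 and 127 at 35 °C and 331, 332 and 326 at 40 °C. All 5 groups were apart, highest at 40 °C and lowest at 35 °C with melatonin. MSTRG.2591 rose by 2.44 ± 0.03 (adjusted p = 2.8e-17) at 40 °C against 25 °C, fell by 2.11 ± 0.03 (adjusted p = 5.0e-16) with melatonin at 40 °C and fell by 0.88 ± 0.03 (adjusted p = 1.4e-10) with melatonin at 35 °C. In Arabidopsis the protein of that name lies in the chloroplast, is needed for starch loss and has no amylase activity of its own.

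Beta-amylases release maltose from starch. MSTRG.2329, another beta-amylase, on chromosome 2, positions 1495776 to 1507769, plus strand, had an FPKM of 31.5, 35.2 and 31.9 at 25 °C, 94.3, 95.2 and 98.01 at 35 °C and 112, 125 and 126 at 40 °C in the libraries without melatonin. MSTRG.2329 with melatonin had an FPKM of 64.98, 59.4 and 59.04 at 35 °C and 59.7, 60.5 and 59.98 at 40 °C. Both heat groups lay above 25 °C and above the melatonin groups, which overlapped each other and also stayed above 25 °C. MSTRG.2329 rose by 1.48 ± 0.05 (adjusted p = 2.5e-11) at 35 °C, rose by 1.97 ± 0.05 (adjusted p = 1.2e-13) at 40 °C, fell by 0.75 ± 0.05 (adjusted p = 1.6e-07) with melatonin at 35 °C and fell by 1.2 ± 0.05 (adjusted p = 7.6e-11) with melatonin at 40 °C. MSTRG.18567, described as chloroplast beta-amylase 3, in Arabidopsis a main starch-degrading form, had 33.8 ± 0.626 FPKM at 25 °C, 18.96 ± 2.0 at 35 °C, 19.3 ± 0.959 at 40 °C, 8.5 ± 1.07 at 35 °C with melatonin and 10.8 ± 1.21 at 40 °C with melatonin. It fell by 0.72 ± 0.10 (adjusted p = 1.2e-05) at 40 °C, fell by 1.26 ± 0.10 (adjusted p = 6.6e-07) with melatonin at 35 °C and fell by 1.03 ± 0.10 (adjusted p = 6.2e-07) with melatonin at 40 °C. MSTRG.15706, a second locus described as beta-amylase 4, had 83.8 ± 2.78 FPKM at 25 °C and 47.1 ± 0.39 at 40 °C and fell by 0.74 ± 0.04 (adjusted p = 6.2e-10). Over the 9 tested beta-amylases 4 rose and 3 fell at 40 °C, or 6 and 3 with median-of-ratios scaling. Of these 9, 0 rose and 5 fell with melatonin at 35 °C. With melatonin at 40 °C 2 of them rose and 6 fell, or 1 and 6 with that scaling. Over all genes 37.3% rose and 38.6% fell at 40 °C. The shares of all genes with melatonin were 9.7% and 12.3% at 35 °C and 32.9% and 26.2% at 40 °C.

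Alpha-amylases cut inside the glucan chain; MSTRG.10377 had 21.4 ± 3.48 FPKM at 25 °C and 33.4 ± 1.89 at 40 °C and rose by 0.73 ± 0.11 (adjusted p = 2.2e-05). With melatonin MSTRG.10377 rose by 0.38 ± 0.11 (adjusted p = 0.02) at 35 °C, to 26.8 ± 0.438 FPKM, and fell by 0.86 ± 0.11 (adjusted p = 7.9e-06) at 40 °C, to 21.1 ± 2.04 FPKM. Its call at 35 °C was lost without 35 °C replicate 2 or 3, or 35 °C with melatonin replicate 2, with log2 fold changes of 0.33 to 0.38. The low alpha-amylase MSTRG.15234 had 0.273 ± 0.119 FPKM at 25 °C and 1.02 ± 0.401 at 40 °C with melatonin, a rise of 1.75 ± 0.61 (adjusted p = 0.021) that was lost without any of 4 of the 6 libraries, at 1.51 to 1.67. The disproportionating enzyme of the cytosol, which uses the exported maltose, is described at MSTRG.24655, a merged locus on ctg64. MSTRG.24655, under the name DPE2, had an FPKM of 12.9, 13.02 and 13.4 at 25 °C, 18.8, 18.4 and 18.1 at 35 °C and 3.29, 3.32 and 3.33 at 40 °C in the libraries without melatonin. MSTRG.24655 with melatonin had an FPKM of 14.9, 14.5 and 15.2 at 35 °C and 17.1, 17.9 and 17.7 at 40 °C. The 40 °C libraries stood below all others, and with melatonin at 40 °C the level was above that at 25 °C. MSTRG.24655 fell by 1.89 ± 0.04 (adjusted p = 1.2e-14) at 40 °C against 25 °C and rose by 2.21 ± 0.04 (adjusted p = 1.3e-14) with melatonin at 40 °C. The single glucan phosphorylase described as PHS2, MSTRG.11983, had 4.51 ± 0.015 FPKM at 25 °C, 2.3 ± 0.583 at 40 °C and 3.57 ± 0.651 at 40 °C with melatonin, and was named after its values were seen.

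Trehalose genes split by enzyme. Of 19 tested, 5 rose and 12 fell at 40 °C against 25 °C (median -1.77); the 10 trehalose-phosphate synthases gave 5 rises and 5 falls, and the 7 tested trehalose-phosphate phosphatases 0 rises and 6 falls, beside 37.3% and 38.6% of all genes. The synthase makes trehalose phosphate and the phosphatase removes its phosphate. MSTRG.146, a synthase on chromosome 1, positions 1280008 to 1284157, minus strand, had an FPKM of 3.69, 3.14 and 3.6 at 25 °C, 19.8, 22.97 and 21.8 at 35 °C and 448, 452 and 461 at 40 °C in the libraries without melatonin. MSTRG.146 with melatonin had an FPKM of 15.7, 14.5 and 13.7 at 35 °C and 11.3, 11.5 and 10.2 at 40 °C. All 5 groups were apart, with 40 °C far above the rest and 40 °C with melatonin below both groups at 35 °C. MSTRG.146 rose by 2.57 ± 0.08 (adjusted p = 2.6e-12) at 35 °C and rose by 7.12 ± 0.09 (adjusted p = 4.0e-17) at 40 °C against 25 °C, fell by 0.66 ± 0.07 (adjusted p = 9.3e-06) with melatonin at 35 °C and fell by 5.56 ± 0.08 (adjusted p = 1.2e-15) with melatonin at 40 °C.

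The loci MSTRG.16019, merged and described as synthase 6, and MSTRG.20889, described as synthase 10, belong by name to the class whose Arabidopsis members have shown no clear synthase activity. MSTRG.16019 had 21.5 ± 0.819 FPKM at 25 °C, 47.2 ± 0.456 at 35 °C, 65.3 ± 4.41 at 40 °C and 35.2 ± 0.967 at 40 °C with melatonin, and rose by 1.69 ± 0.05 (adjusted p = 1.4e-13) at 40 °C. MSTRG.20889 had 13.2 ± 0.636 FPKM at 25 °C, 26.8 ± 0.763 at 35 °C, 36.01 ± 1.56 at 40 °C and 22.8 ± 0.302 at 40 °C with melatonin, and rose by 1.54 ± 0.05 (adjusted p = 2.9e-13) at 40 °C. Both were thus highest at 40 °C without melatonin. MSTRG.12730, a synthase that went the other way, had an FPKM of 28.2, 24.9 and 24.5 at 25 °C, 8.19, 10.2 and 10.8 at 35 °C and 0.613, 0.444 and 0.694 at 40 °C in the libraries without melatonin. MSTRG.12730 with melatonin had an FPKM of 14.1, 13.7 and 14.6 at 35 °C and 7.21, 6.36 and 7.13 at 40 °C. The 40 °C libraries were lowest here, and the libraries with melatonin lay above those without it at both temperatures. MSTRG.12730 fell by 5.38 ± 0.15 (adjusted p = 1.6e-13) at 40 °C and rose by 3.37 ± 0.14 (adjusted p = 5.0e-11) with melatonin at 40 °C. MSTRG.11540, described as TPS1.1a after the catalytic class, had 13.9 ± 0.409 FPKM at 25 °C, 3.13 ± 0.0651 at 40 °C and 6.91 ± 0.595 at 40 °C with melatonin; it fell by 0.93 ± 0.07 (adjusted p = 1.8e-07) with melatonin at 35 °C and rose by 0.95 ± 0.07 (adjusted p = 1.6e-08) at 40 °C.

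MSTRG.13682, the most abundant phosphatase at 25 °C, on chromosome 8, positions 1217702 to 1221794, plus strand, had an FPKM of 19.5, 18.8 and 22.02 at 25 °C, 0.937, 1.03 and 0.536 at 35 °C and 0, 0 and 0 at 40 °C in the libraries without melatonin. MSTRG.13682 with melatonin had an FPKM of 3.69, 3.04 and 2.56 at 35 °C and 0.279, 0 and 0.539 at 40 °C. No fragment was counted in any library at 40 °C, and 1 of the 3 libraries at 40 °C with melatonin was also at 0. Against a floor of 3 counts over the group, the 40 °C level was at least 2092-fold lower than at 25 °C. MSTRG.13682 fell by 4.64 ± 0.59 (adjusted p = 3.2e-05) at 35 °C and rose by 1.78 ± 0.54 (adjusted p = 0.034) with melatonin at 35 °C. The melatonin call was lost when any 1 of the 6 libraries was left out, at log2 fold changes of 1.54 to 1.98. Rhsim09G0191600, a further phosphatase, had 1.83 ± 0.417 FPKM at 25 °C, 0.435 ± 0.0596 at 35 °C and 2.28 ± 0.422 at 35 °C with melatonin, a rise of 2.27 ± 0.60 with melatonin (adjusted p = 0.013) that was lost without 35 °C with melatonin replicate 1, at 2.11. The phosphatases MSTRG.18102, MSTRG.23280, MSTRG.5419 and Rhsim07G0104400, named after their values were seen, had 5.49 ± 0.0469, 3.95 ± 0.743, 4.01 ± 1.0 and 2.13 ± 0.179 FPKM at 25 °C, and 0.547 ± 0.0159, 0.318 ± 0.109, 0.402 ± 0.129 and 0.662 ± 0.0311 at 40 °C. Over the 7 phosphatases 0 rose and 4 fell at 35 °C, 3 rose and 0 fell with melatonin at 35 °C and 4 rose and 1 fell with melatonin at 40 °C. Of all genes 25.5% rose and 23.6% fell at 35 °C. The shares with melatonin were 9.7% and 12.3% at 35 °C and 32.9% and 26.2% at 40 °C. The trehalase MSTRG.13723, named after its values were seen, splits trehalose to glucose and fell by 1.77 ± 0.17 (adjusted p = 2.2e-07) at 40 °C, from 7.85 ± 0.416 to 2.16 ± 0.394 FPKM.

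**Figure D4:**
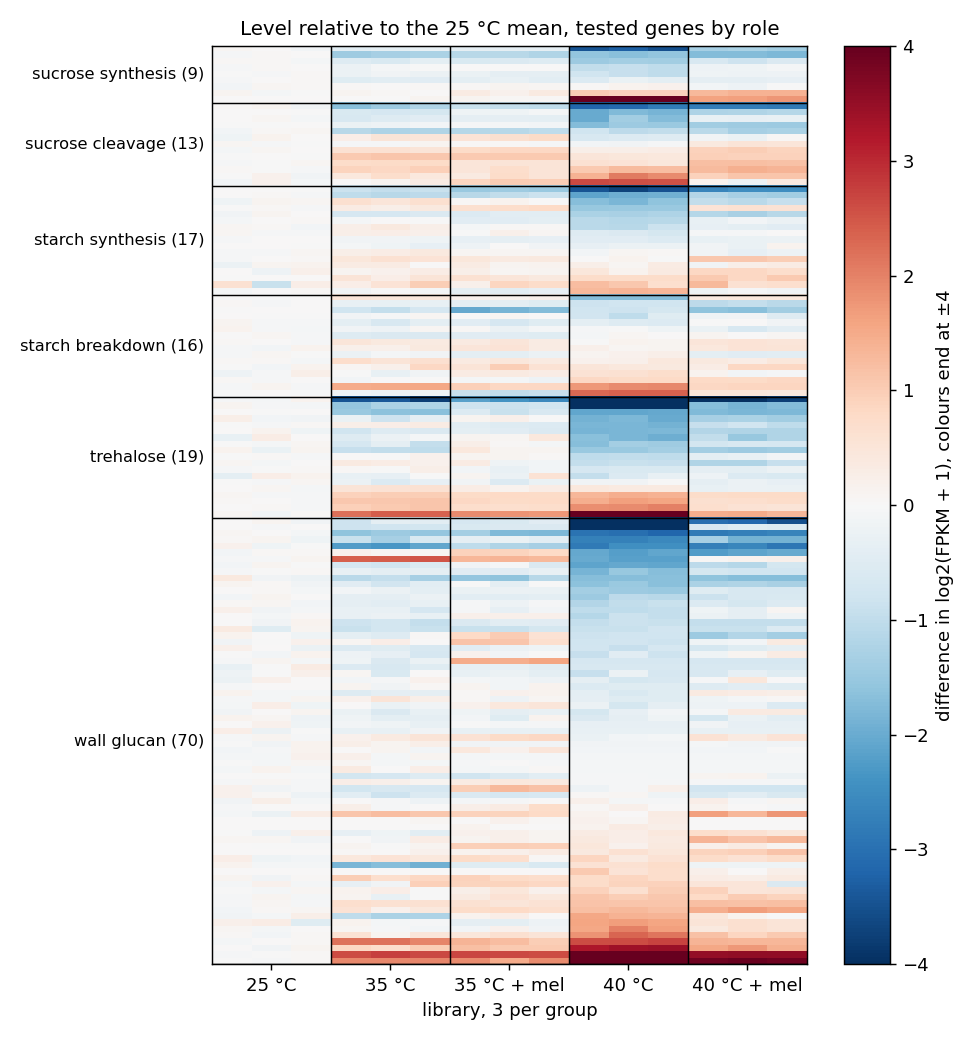
Each row is 1 of the 144 tested genes with a role, and colour gives log2(FPKM + 1) minus the gene's 25 °C mean in each library; rows are ordered within a role by their 40 °C value. The 40 °C columns without melatonin hold the strongest colours in every role, by mean size of the difference, and 12 of the 19 trehalose genes fell there while 5 rose.

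Among 70 tested wall and glucoside hydrolases, 12 rose and 22 fell at 35 °C and 23 rose and 34 fell at 40 °C against 25 °C (median -0.85), and 23 rose and 18 fell with melatonin at 40 °C. Over all genes 25.5% rose and 23.6% fell at 35 °C, and 37.3% and 38.6% at 40 °C. With melatonin at 40 °C the shares were 32.9% and 26.2%. Among the 70, 14 had no count in the 25 °C group or in the 40 °C group without melatonin. These passed the count filter through groups where they are high, so their direction was partly set by it. A pair of beta-glucosidases, enzymes that free glucose from glucosides and cellobiose, reached the highest levels of the role at 40 °C. MSTRG.14534, on chromosome 8, positions 16961065 to 16969112, plus strand, had an FPKM of 20.2, 20.9 and 21.9 at 25 °C, 134, 145 and 137 at 35 °C and 752, 756 and 768 at 40 °C in the libraries without melatonin. MSTRG.14534 with melatonin had an FPKM of 138, 138 and 134 at 35 °C and 250.1, 254 and 258 at 40 °C. Heat groups lay above 25 °C at both temperatures, and at 40 °C the melatonin libraries lay below those without it. MSTRG.14534 rose by 2.66 ± 0.04 (adjusted p = 1.4e-15) at 35 °C, rose by 5.26 ± 0.04 (adjusted p = 3.4e-19) at 40 °C and fell by 1.77 ± 0.04 (adjusted p = 2.0e-14) with melatonin at 40 °C.

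MSTRG.22947, the other beta-glucosidase, on chromosome 13, positions 26061033 to 26066758, minus strand, had an FPKM of 2.94, 2.84 and 3.1 at 25 °C, 13.9, 13.99 and 14.5 at 35 °C and 418, 438 and 431 at 40 °C in the libraries without melatonin. MSTRG.22947 with melatonin had an FPKM of 13.8, 10.1 and 13.5 at 35 °C and 57.5, 60.8 and 57.7 at 40 °C. The order of the groups without overlap was 40 °C, 40 °C with melatonin, the 35 °C group and 25 °C. MSTRG.22947 rose by 2.19 ± 0.09 (adjusted p = 1.2e-10) at 35 °C, rose by 7.27 ± 0.11 (adjusted p = 2.4e-16) at 40 °C and fell by 3.06 ± 0.09 (adjusted p = 9.9e-13) with melatonin at 40 °C. Its level at 40 °C with melatonin stayed 4.2 ± 0.10 above 25 °C on the log2 scale (adjusted p = 6.1e-14), and that of MSTRG.14534 3.49 ± 0.04 above it (adjusted p = 2.9e-17). Over the 21 tested beta-glucosidases 8 rose and 9 fell at 40 °C, beside 37.3% and 38.6% of all genes.

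Endoglucanases cut beta-linked glucans such as cellulose, and 10 of 13 tested fell at 40 °C while 1 rose, beside 38.6% and 37.3% of all genes. Their median log2 fold change was -3.39, or -2.74 with the 5 genes that had no count in a group set at their bound. Some had counts mainly at 25 °C, for example 77 there and 0 at 40 °C. Such genes passed the count filter through the group where they are high, so their fall was partly set by it. MSTRG.1391, on chromosome 1, positions 35105792 to 35125750, plus strand, had an FPKM of 34.7, 32.9 and 34.4 at 25 °C, 18.7, 19.3 and 19.9 at 35 °C and 1.11, 0.896 and 0.713 at 40 °C in the libraries without melatonin. MSTRG.1391 with melatonin had an FPKM of 21.9, 22.3 and 22.6 at 35 °C and 21.5, 23.9 and 23.02 at 40 °C. Only the 40 °C libraries without melatonin were near 0, and those with melatonin at both temperatures overlapped. MSTRG.1391 fell by 5.14 ± 0.11 (adjusted p = 1.3e-14) at 40 °C and rose by 4.46 ± 0.11 (adjusted p = 2.1e-13) with melatonin at 40 °C. MSTRG.2176, on chromosome 1, positions 47036822 to 47039593, plus strand, had an FPKM of 5.25, 5.26 and 6.09 at 25 °C, 33.5, 34.1 and 36.6 at 35 °C and 0.619, 0.45 and 0.459 at 40 °C in the libraries without melatonin. MSTRG.2176 with melatonin had an FPKM of 15.4, 15.8 and 14.9 at 35 °C and 5.68, 6.26 and 6.53 at 40 °C. This gene was highest at 35 °C and lowest at 40 °C, and the 40 °C libraries with melatonin overlapped those at 25 °C. MSTRG.2176 rose by 2.59 ± 0.10 (adjusted p = 5.9e-11) at 35 °C, fell by 3.34 ± 0.12 (adjusted p = 1.7e-12) at 40 °C, fell by 1.28 ± 0.10 (adjusted p = 3.1e-07) with melatonin at 35 °C and rose by 3.4 ± 0.12 (adjusted p = 5.2e-12) with melatonin at 40 °C. The abundant MSTRG.24403 had 65.2 ± 4.67 FPKM at 25 °C and 31.9 ± 3.43 at 40 °C and fell by 0.94 ± 0.08 (adjusted p = 6.5e-08).

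Glucan endo-1,3-beta-glucosidases degrade callose, the glucan that narrows plasmodesmata. Of 27 tested 9 rose and 12 fell at 40 °C, beside 37.3% and 38.6% of all genes. Among the 27, 6 had no count in the 25 °C group or in the 40 °C group without melatonin. These passed the count filter through groups where they are high, so their direction was partly set by it. MSTRG.23851 went from 5.58 ± 0.681 FPKM at 25 °C to 0.0344 ± 0.0595 at 40 °C and 1.05 ± 0.489 at 40 °C with melatonin, where it rose by 4.61 ± 0.69 (adjusted p = 4.2e-05). Only 40 °C replicate 3 had counts of it at that temperature, and without that library the fitted melatonin change was 8.95, which depends on the prior count. Rhsim06G0004800 had 0.882 ± 0.216 FPKM at 25 °C, 0.166 ± 0.0306 at 35 °C, 0.859 ± 0.267 at 40 °C, 3.19 ± 0.436 at 35 °C with melatonin and 0.0856 ± 0.0152 at 40 °C with melatonin. That gene rose by 4.13 ± 0.32 (adjusted p = 4.0e-07) with melatonin at 35 °C and fell by 3.39 ± 0.33 (adjusted p = 4.6e-07) with melatonin at 40 °C. Rhsim13G0113600 was at 0 in all 25 °C libraries and at least 111-fold higher at 40 °C with melatonin, by a floor of 3 counts over the group. It passed the count filter through groups where it is high, so its rise was partly set by the filter. Neighbouring copies did not always move together. On chromosome 1, between 36598610 and 36691314, MSTRG.1474, a merged locus named after its values were seen, rose by 1.94 ± 0.20 (adjusted p = 4.3e-07) at 40 °C while MSTRG.1477 fell by 8.18 ± 1.24 (adjusted p = 2.9e-05), from 2.31 ± 0.831 to 0.00323 ± 0.00559 FPKM. On chromosome 4, between 37248801 and 37288974, the lichenase-like MSTRG.8077 fell by 3.74 ± 0.32 (adjusted p = 5.0e-08) and its neighbour MSTRG.8079, also named after its values were seen, rose by 0.80 ± 0.13 (adjusted p = 4.1e-05). Reads of near-identical copies can be split between loci, so values of single neighbours are uncertain. In all, 50 members lay in 18 clusters, each of 1 class with gaps of at most 100 kb between successive members.

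Members whose description names no enzyme of the map gave 43 rises and 36 falls among 108 tested at 40 °C, beside 37.3% and 38.6% of all genes. Of the 28 pentatricopeptide repeat proteins, which bind RNA in chloroplasts and mitochondria, 18 rose and 0 fell at 35 °C against 25 °C, 17 rose and 2 fell at 40 °C and 0 rose and 2 fell with melatonin at 35 °C. At 40 °C 13 were higher and 3 lower with melatonin than without, and at 40 °C with melatonin 22 of 28 stood above 25 °C and 0 below (median 1.37). Over all genes 25.5% rose and 23.6% fell at 35 °C, and 37.3% and 38.6% at 40 °C. With melatonin at 35 °C 9.7% of all genes rose and 12.3% fell. At 40 °C 32.9% were higher and 26.2% lower with melatonin than without. At 40 °C with melatonin 34.3% stood above 25 °C and 33.3% below. MSTRG.11820 had 2.58 ± 0.281 FPKM at 25 °C, 5.09 ± 0.189 at 35 °C and 2.94 ± 0.248 at 35 °C with melatonin, where it fell by 0.89 ± 0.10 (adjusted p = 1.1e-05).

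Berberine bridge-like oxidases are flavoprotein oxidases, some of them named here after daurichromenic acid synthase, which in Rhododendron dauricum closes the ring of a meroterpenoid. Of 18 tested, 12 rose and 3 fell at 40 °C against 25 °C, 9 rose and 0 fell with melatonin at 35 °C and 1 rose and 10 fell with melatonin at 40 °C. The shares of all genes that rose and fell were 37.3% and 38.6%, 9.7% and 12.3% and 32.9% and 26.2% in these comparisons. Their median log2 fold change at 40 °C was 6.44, or 5.43 with the 7 genes at 0 in a group set at their bound. Some of these genes had counts almost only at 40 °C without melatonin, for example 415 there and 0 at 25 °C. Such genes passed the count filter through that group. Their rise at 40 °C and fall with melatonin there were partly set by the filter, and the counts and median above include them. MSTRG.22443, a merged locus on chromosome 13, positions 14279345 to 14298370, minus strand, had an FPKM of 0, 0 and 0 at 25 °C, 0.116, 0.0278 and 0.0631 at 35 °C and 22.4, 24.4 and 23.5 at 40 °C in the libraries without melatonin. MSTRG.22443 with melatonin had an FPKM of 1.89, 1.67 and 1.97 at 35 °C and 0.257, 0.234 and 0.204 at 40 °C. All 5 groups were apart, with 25 °C at 0 and 40 °C without melatonin highest. It was at least 4736-fold higher at 40 °C than at 25 °C by the floor of 3 counts, rose by 4.58 ± 0.25 (adjusted p = 9.7e-08) with melatonin at 35 °C and fell by 6.82 ± 0.24 (adjusted p = 8.3e-11) with melatonin at 40 °C. MSTRG.1084 was at 0 at 35 °C and at 6.54 ± 1.12 FPKM at 40 °C, at least 856-fold higher, and fell by 5.68 ± 0.94 (adjusted p = 2.0e-04) with melatonin at 40 °C, to 0.143 ± 0.203 FPKM. The most abundant of the class at 25 °C, MSTRG.22439, went the other way in heat, from 119 ± 1.23 FPKM at 25 °C to 50.3 ± 4.35 at 35 °C and 20.8 ± 2.91 at 40 °C (adjusted p = 1.5e-12), and reached 113 ± 2.72 at 35 °C with melatonin (adjusted p = 3.2e-07). MSTRG.22433, in the same cluster on chromosome 13, had 0.122 ± 0.0219 FPKM at 35 °C and 6.2 ± 0.425 with melatonin, a rise of 5.47 ± 0.76 (adjusted p = 1.1e-04). MSTRG.1088 fell by 7.2 ± 1.42 (adjusted p = 5.0e-04) with melatonin at 40 °C, from 1.66 ± 0.509 to 0.0106 ± 0.0184 FPKM, and MSTRG.3542, at 0 at 25 °C, was at least 110.5-fold higher at 40 °C with melatonin by the floor of 3 counts.

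Plasmodesmata callose-binding proteins hold callose at the channels between cells. MSTRG.14626 had 6.56 ± 1.46 FPKM at 25 °C, 0.19 ± 0.328 at 40 °C and 5.88 ± 0.399 at 40 °C with melatonin, and fell by 4.94 ± 0.78 (adjusted p = 4.4e-05) at 40 °C and rose by 4.68 ± 0.78 (adjusted p = 1.1e-04) with melatonin there. Replicate 2 was the only 40 °C library with counts of MSTRG.14626, and without it the fitted changes were -11.23 and 10.96, which depend on the prior count. A merged locus whose joined descriptions include an unnamed protein and a strictosidine beta-glucosidase, MSTRG.23163, had 104 ± 5.4 FPKM at 25 °C, 61.9 ± 0.705 at 35 °C, 0.488 ± 0.0471 at 40 °C and 4.88 ± 0.328 at 40 °C with melatonin. It fell by 7.63 ± 0.08 (adjusted p = 8.6e-18) at 40 °C and rose by 3.12 ± 0.07 (adjusted p = 5.5e-14) with melatonin there. MSTRG.3771, listed under the invertase ortholog but described as an uncharacterized protein family member, had 17.6 ± 0.79 FPKM at 25 °C, 0.0145 ± 0.0252 at 40 °C and 0.0682 ± 0.108 with melatonin there, and fell by 9.997 ± 0.66 (adjusted p = 2.6e-09) at 40 °C. Among members described only as hypothetical, MSTRG.15232 rose by 2.41 ± 0.45 (adjusted p = 4.7e-04) at 35 °C, from 0.793 ± 0.321 to 4.45 ± 2.27 FPKM, and MSTRG.5497 had 81.5 ± 4.8 FPKM at 25 °C, 53.7 ± 7.39 at 35 °C and 64.9 ± 4.21 at 40 °C. The sulfoquinovosidase MSTRG.4475, an enzyme of sulfolipid breakdown, fell by 1.78 ± 0.14 (adjusted p = 1.1e-07) at 35 °C, from 6.44 ± 0.325 to 1.95 ± 0.165 FPKM.

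The melatonin comparisons at 35 and at 40 °C share no library. Melatonin effects passed the test in opposite directions, with the difference between them also past it, for 28 of the 252 tested members: 15 were lower with melatonin at 35 °C and higher at 40 °C, and 13 the reverse. Over all tested genes 6.86% did so, 4.12% in the former order and 2.73% in the latter. ADP-glucose pyrophosphorylase MSTRG.2377 (difference 1.58 ± 0.09, adjusted p = 2.8e-09), the disproportionating enzyme MSTRG.24655 (2.62 ± 0.06, adjusted p = 1.6e-13) and the endoglucanase MSTRG.2176 (4.68 ± 0.15, adjusted p = 6.7e-12) are of the former kind. Fructokinase MSTRG.2865 (-4.21 ± 0.31, adjusted p = 4.4e-08) and the alpha-amylase MSTRG.10377 (-1.24 ± 0.15, adjusted p = 1.0e-05) are of the latter. For MSTRG.146, lower with melatonin at both temperatures, the effect was further below 0 at 40 °C by 4.9 ± 0.10 (adjusted p = 1.0e-13). Beta-amylase MSTRG.2591 was likewise lower at both, with a difference of -1.23 ± 0.04 (adjusted p = 7.8e-12).

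**Figure D5:**
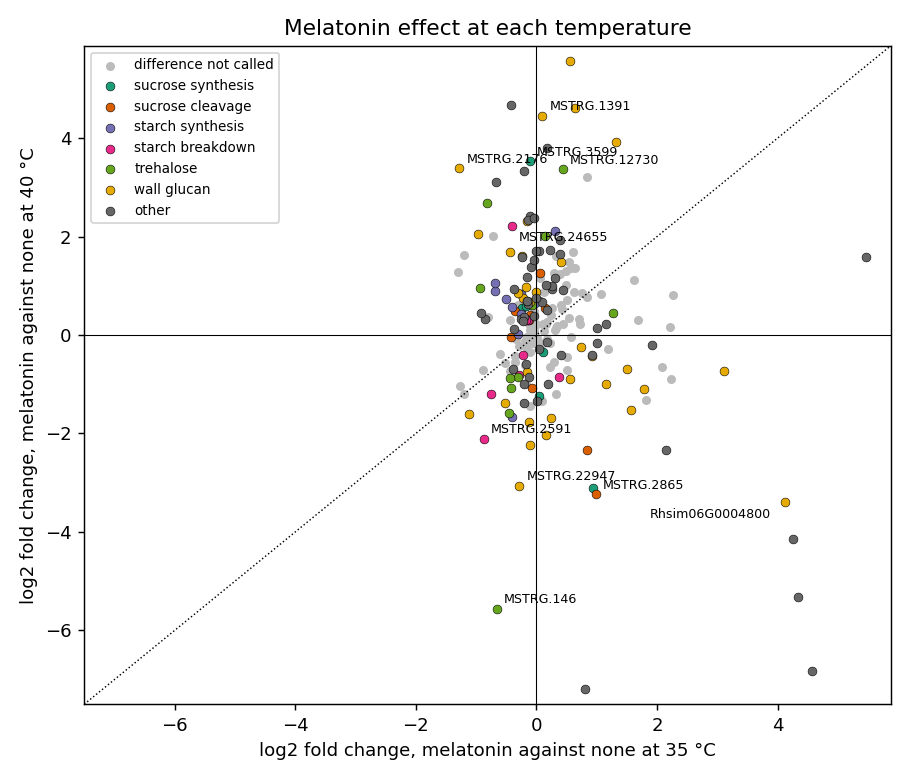
Each point is a tested member, with the log2 fold change of melatonin against none at 35 °C across and at 40 °C upward; colours mark roles where the difference between the effects passed the test, the dotted line marks equal effects, and 23 genes with no count in a group are not drawn. Effects at 40 °C spread further than at 35 °C, with MSTRG.1088 and MSTRG.22443 at the bottom, MSTRG.146 next among members of other roles, and MSTRG.1391 near the top.

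Genes that are not members but move, use or sense the same sugars were listed by description, 57 in all with 47 tested. Not all need lie outside the map, since 17 of its genes also carry the glycolysis map and are not members. Of the 47, 17 rose and 21 fell at 40 °C against 25 °C, and 17 rose and 17 fell with melatonin at 40 °C. Of all genes 37.3% and 38.6% rose and fell in the former comparison and 32.9% and 26.2% in the latter, so the shares at 40 °C against 25 °C, 36.2% and 44.7%, lie near the background. Of 3 tested SWEET sugar transporters, 0 rose and 1 fell at 40 °C; MSTRG.5660, described as SWEET3, had 10.4 ± 0.422 FPKM at 25 °C, 0.0463 ± 0.0122 at 40 °C and 1.33 ± 0.229 there with melatonin (adjusted p = 3.5e-15 for 40 °C against 25 °C). Of 6 plastid sugar phosphate translocators, 1 rose and 4 fell at 40 °C; the triose phosphate translocator MSTRG.3329, which exports fixed carbon for sucrose synthesis, had 282 ± 2.2 FPKM at 25 °C, 95.5 ± 7.61 at 40 °C and 176 ± 1.63 there with melatonin (adjusted p = 5.0e-13 for 40 °C against 25 °C). The hexokinase MSTRG.5984 had 29.6 ± 0.206 FPKM at 25 °C, 206 ± 10.6 at 40 °C and 78.8 ± 1.15 there with melatonin (adjusted p = 5.0e-15 for 40 °C against 25 °C). Of 12 tested hexose and tonoplast sugar transporters, 6 rose and 4 fell at 40 °C, and the sugar transport protein MSTRG.7849 had 35.99 ± 0.915 FPKM at 25 °C, 2.31 ± 0.387 at 40 °C and 48.99 ± 1.46 there with melatonin (adjusted p = 2.2e-14 for 40 °C against 25 °C). MSTRG.13592, described as a monosaccharide-sensing protein, had 18.6 ± 1.25 FPKM at 25 °C, 1.79 ± 0.135 at 40 °C and 10.8 ± 0.417 there with melatonin (adjusted p = 1.1e-14 for 40 °C against 25 °C). Of 4 tested sucrose transport proteins 1 rose and 2 fell, of 11 SnRK1 subunits 6 rose and 4 fell, of 10 hexokinase, phosphoglucomutase and isomerase genes 3 rose and 5 fell, and the maltose exporter was at 16.1 ± 1.36 FPKM at 25 °C and 8.11 ± 0.0746 at 40 °C, a fall.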

How the data were processed

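Leaf RNA of 15 libraries was selected for poly(A) and made into libraries with a dUTP-marked second strand, per the labels' protocols; whether counting used the strand was not stated there. The submitters' processing notes name cutadapt 1.9, HISAT2 2.0.4 and StringTie 1.3.4d without their settings. Coordinates are those of the deposited table, in a genome build not given in the sources used here, and were left as they stand. The authors deposited 1 table with a read count and an FPKM value per gene and library, per the file headers, beside gene descriptions and KEGG entries. FPKM as deposited by the authors is scaled for gene length and library depth, and was used for levels. Fold changes come from counts under another scaling, so small ones can differ from ratios of FPKM. An example, named after its values were seen, is hexokinase MSTRG.8484 at 40 °C. It had 47.4 FPKM without and 47.1 with melatonin, beside a fitted log2 fold change of -0.20. A further 6 columns of values match no sample described here and were not used. Counts were tested with edgeR 4.0.16 in R 4.3.3 (TMM scaling, its default expression filter, a quasi-likelihood fit with 5 group means over 15 libraries), with Benjamini-Hochberg adjustment over 26183 genes; the procedure was tested on simulated data. The SE of a log2 fold change is its size divided by the square root of the F statistic. Folds against a group without counts use a floor of 3 counts over the group, which covers counting error only. Genes with such a fold passed the count filter through groups where they are high, so its direction was partly set by the filter. Role lists, marker lists and sugar transport and signalling lists match words in the descriptions; 6 members were placed by words added after the files were read. Named genes are, by rule, the 3 tested members of highest mean FPKM in each role; the called member with the largest rise and fall per role and comparison, among those with at least 1 FPKM in the higher group and no overlap of libraries; the 6 members of smallest adjusted p in the difference of melatonin effects; and leading sugar transport and signalling genes. Others are marked where they appear. Members and lists were chosen with earlier results of these data known. Alternatives used DESeq2 1.42.0, limma 3.58.1 on log2 FPKM plus a pseudocount of 1 or 0.1, other scaling and filters, a replicate block, and each library left out. No promoter, transcript or protein sequence was used here.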

Additional observations from a re-analysis of the deposited data

Results flagged for a closer look

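The melatonin effect differed between temperatures, by edgeR's test of the difference at an adjusted p below 0.05, for 47 of the 69 members named above, beside 48.5% of all tested genes. Nothing is read from that count, since members were named partly for their melatonin changes or for the smallest adjusted p of this difference. The values in parentheses are the log2 effect at 40 °C minus that at 35 °C. Each value comes from 3 libraries in each of the 4 groups. Lower with melatonin at 35 °C and higher at 40 °C were MSTRG.2177 (0.43), MSTRG.13764 (0.78), MSTRG.22652 (1.1), MSTRG.2377 (1.58), MSTRG.8740 (1.76), MSTRG.11540 (1.88), MSTRG.24655 (2.62), MSTRG.23163 (3.78) and MSTRG.2176 (4.68). Among them MSTRG.2177 is described as a sucrose synthase, MSTRG.22652 as a soluble starch synthase, and MSTRG.2377 and MSTRG.8740 as ADP-glucose pyrophosphorylases. Higher at 35 °C and lower at 40 °C were MSTRG.1084 (-14.02), MSTRG.22443 (-11.4), Rhsim06G0004800 (-7.52), MSTRG.2865 (-4.21), MSTRG.8079 (-2.89) and MSTRG.10377 (-1.24). MSTRG.1084 had no count at 35 °C, so its value depends on the prior count and is no bound. Lower at both temperatures were MSTRG.146 (-4.9), MSTRG.22947 (-2.78), MSTRG.14534 (-1.64), MSTRG.10053 (-1.26), MSTRG.2591 (-1.23), MSTRG.16019 (-0.66), MSTRG.20889 (-0.54), MSTRG.2329 (-0.45) and MSTRG.15706 (-0.19), and higher at both MSTRG.18102 (-0.82), MSTRG.11325 (1.81), MSTRG.12730 (2.93) and MSTRG.13682 (5.97). MSTRG.13682 had no count at 40 °C, and its value likewise depends on the prior count. At 35 °C the melatonin effects of MSTRG.14534 and MSTRG.2177 were small, -0.13 each. The FPKM of MSTRG.14534 with and without melatonin overlapped there. The effect passed the test at 40 °C and not at 35 °C for MSTRG.1088 (-8.01), MSTRG.18264 (-4.03), Rhsim10G0185600 (-3.16), MSTRG.15238 (-1.35), MSTRG.15029 (-1.0), MSTRG.1474 (-0.86), MSTRG.22389 (-0.45), MSTRG.4144 (0.67), MSTRG.15559 (0.76), MSTRG.14243 (1.21), MSTRG.3599 (3.65), MSTRG.23851 (3.96), MSTRG.1391 (4.36) and MSTRG.14626 (5.1). It passed at 35 °C and not at 40 °C for MSTRG.22433 (-3.88), MSTRG.8077 (-2.2), MSTRG.4475 (-0.92), MSTRG.7330 (0.33) and MSTRG.9682 (0.39). Leaving out 1 library ended some of these calls. For MSTRG.1088 it was lost without 35 °C with melatonin replicate 2 (-3.79). The call for MSTRG.13682 was lost in 10 of the 12 fits without a library of the 4 groups, at 5.08 to 6.11. For MSTRG.15706 it was lost without 40 °C with melatonin replicate 3 (-0.17). For Rhsim10G0185600 it was lost without 35 °C with melatonin replicate 3 (-2.91) and 40 °C with melatonin replicate 3 (-2.84). The fitted difference moved by over 1.5 times, with the call kept, for MSTRG.14626 without 40 °C replicate 2 (11.36), MSTRG.18264 without 35 °C replicate 3 (-9.24), MSTRG.23851 without 40 °C replicate 3 (8.28) and Rhsim10G0185600 without 40 °C with melatonin replicate 1 (-5.12). In MSTRG.14626, MSTRG.18264 and MSTRG.23851 the library left out was the one with counts among the 3 of its group. With 1 library left out, the melatonin effect at 1 temperature itself kept its sign but no longer passed the test for MSTRG.10377 at 35 °C (3 libraries in turn, 0.33 to 0.38), MSTRG.12730 at 35 °C (without 35 °C replicate 1: 0.36 or without 35 °C with melatonin replicate 3: 0.42), MSTRG.13682 at 35 °C (6 libraries in turn, 1.54 to 1.98), MSTRG.14534 at 35 °C (without 35 °C replicate 2: -0.07 or without 35 °C with melatonin replicate 3: -0.12), MSTRG.2177 at 35 °C (without 35 °C replicate 2: -0.09), MSTRG.22947 at 35 °C (3 libraries in turn, -0.27 each), MSTRG.18102 at 40 °C (5 libraries in turn, 0.41 to 0.45) and Rhsim10G0185600 at 40 °C (without 40 °C replicate 1: -2.01 or without 40 °C with melatonin replicate 3: -2.01). Without 35 °C with melatonin replicate 2 the 35 °C effect of MSTRG.22947 was -0.15, from -0.28, with the call kept.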

How the results depend on the processing

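In the order 35 against 25 °C, 40 against 25 °C, 40 against 35 °C, melatonin at 35 °C, melatonin at 40 °C, 40 °C with melatonin against 25 °C, and the difference of the melatonin effects, 145, 199, 180, 79, 158, 187 and 145 members were called. A change of at least 2-fold as a further condition left 56, 141, 115, 27, 84, 120 and 89. Counting only members placed in 1 of the 6 roles, a choice made after seeing the data, gave 85, 120, 110, 55, 99, 107 and 83. Both conditions can only lower a count. With 1 library left out the counts were 130 to 139, 192 to 198, 171 to 179, 71 to 78, 145 to 153, 176 to 182 and 134 to 142. Median-of-ratios scaling, no count filter, DESeq2, limma on log2 FPKM with a pseudocount of 1 or 0.1, fits on the compared groups alone and leaving out merged loci each kept all 7 counts within 1.5 times. The replicate number as a block gave 142, 193, 176, 78, 154, 181 and 141. Deviations of same-numbered libraries from their group means correlated between -0.056 and 0.029 in 30 pairs. Those of libraries with different numbers correlated between -0.032 and 0.056 in 60 pairs. These values show no strong signal shared by number. They cannot settle whether libraries were paired, which the labels do not give. Over the alternatives to 385 results on single genes, 5119 values kept direction and call, 162 kept the direction but lost the call, and 2 reversed. Both reversals were the melatonin difference of MSTRG.13682, which is 5.97 by edgeR and -0.83 and -0.27 by limma with a pseudocount of 1 and 0.1; its 40 °C group has no count, and the cause was not tested. The 47 members that failed the count filter had means of at most 0.184 FPKM over the libraries and were not tested.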
